A study of Mus musculus with 10 samples.

Results

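The comparison described here sets GSK126 against vehicle on day 6 of osteogenic culture, the end of exposure to the compound. It rests on 2 RNA libraries, 1 per treatment, of the 10 libraries in the series (6 RNA, 2 H3K27me3 chromatin immunoprecipitation and 2 input), and covers all 23358 rows of the gene count table. MC3T3 is a mouse calvarial pre-osteoblast line, which lays down and mineralizes matrix in osteogenic medium. GSK126 is a small-molecule inhibitor of EZH2, used at 5 µM. The osteogenic medium of both groups held ascorbic acid at 50 µg/ml and beta glycerol phosphate at 4 mM. The vehicle (DMSO) or the compound was given at the start and again 3 days later, and was taken away on day 6. The sources used here do not give whether day 6 RNA was collected before or after that medium change. The same treatment groups on days 3 and 10, with 1 library each, are given beside the day 6 values. The day 10 libraries come after the removal. Each group is 1 culture of 1 established line, so no p-value, standard error or replicate spread can be given, and a difference between the libraries is not shown to belong to the treatment. In bulk RNA, fewer cells of a kind and less RNA per cell cannot be told apart.

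EZH2 is the catalytic subunit of Polycomb repressive complex 2 (PRC2), which places 3 methyl groups on lysine 27 of histone H3 (H3K27me3), a mark of silent developmental genes. Osteoblasts mature in order: they divide, then deposit collagen and raise alkaline phosphatase, then express late genes such as bone sialoprotein and osteocalcin as mineral forms. Osteoblast maturation is accompanied by less cell division, under the transcription factors RUNX2 and SP7.

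The day 6 libraries held 104690066 (vehicle) and 101690602 (GSK126) counts, close to the 97291878 to 111537936 of all 6 RNA libraries. Every count was even, which fits 2 counted read ends per fragment, so intervals were taken on fragments. Rn45s, the ribosomal RNA precursor, took 5.99% and 5.61% of the counts. All 10 osteoblast markers examined (Runx2, Sp7, Alpl, Col1a1, Col1a2, Ibsp, Bglap, Bglap2, Spp1 and Pth1r) were at a CPM (counts scaled to a fixed library total) of 1 or more in both libraries. Of 5 endothelial markers, 0 reached that level. The blood list had 3 of 8 members above it (Ctsk, Lyz2 and Csf1r), while Ptprc was at 2 counts in each library. Among adipocyte markers 1 of 7 reached it (Cebpa), and Adipoq was at 2 counts in vehicle and 0 in GSK126. Summed CPM in vehicle and GSK126 were 263 and 305 for the blood list, most of it Ctsk, and 10.6 and 10.2 for the adipocyte list; their part in the results below was not tested. Of 6 skeletal muscle markers 1 reached CPM 1 (Des, 3.51 and 4.57 CPM), with a sum of 4.41 and 5.26 CPM; Myod1, which defines the lineage, was at 0 counts in both and Myog at 0 and 8.

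Levels are CPM scaled by TMM (a library scaling that assumes most genes do not change), and ratios are log2 of GSK126 over vehicle after a prior count of 2. Of the 23358 rows, 11465 stayed below CPM 1 in both day 6 libraries. Among the 11893 others, 491 genes (4.13%) were at least 2-fold higher with GSK126 and 256 (2.15%) at least 2-fold lower. With the vehicle libraries of days 3 and 10 in place of that of day 6, 422 genes were at least 2-fold lower. At 1.5-fold the counts were 914 (7.69%) higher and 863 (7.26%) lower. The median gene stood at -0.01. A 95% counting interval away from no difference was found for 68.0% of the genes, since libraries this deep resolve small differences, and this interval holds no biological variation. The 2-fold boundary separates nothing in the data: Alpl (1.0035) lay just inside and Junb (0.9983) just outside.

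**Figure D1:**
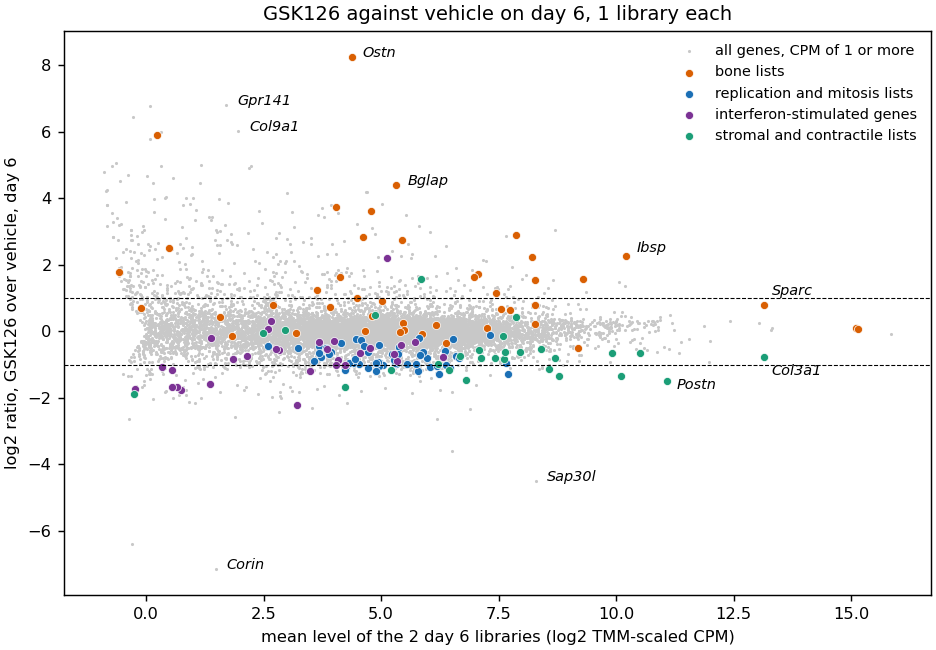
Each point is 1 gene with CPM of 1 or more; the horizontal axis is its mean level in the 2 day 6 libraries (log2 TMM-scaled CPM), the vertical axis its log2 ratio of GSK126 over vehicle, and dashed lines mark 2-fold. Bone genes (orange) reach from -0.51 (Ogn) to 8.25 (Ostn), replication and mitosis genes (blue) all lie below 0, and the interferon-stimulated genes (purple) and the stromal and contractile genes (green) lie mostly below 0.

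Of the 491 genes 2-fold higher on day 6, 449 (91.4%) also had a ratio above 0 in the day 3 pair and 430 (87.6%) in the day 10 pair, against 44.2% and 49.1% of all 11893 genes. Of the 256 lower genes, 191 (74.6%) were below 0 on day 3 and 183 (71.5%) on day 10, against 55.8% and 50.9% of all genes. The pairs share no library. A deposited RPKM (counts per library size and coding length) of 1 or less in vehicle was found for 304 of the 491 higher genes (61.9%) and 1303 of all 11893 (11.0%). The rule sets this in part, since 197 of the 491 were under CPM 1 in vehicle and passed the minimum through the GSK126 library alone. A total of 89 had a day 6 GSK126 level at least 2-fold above that of every other library.

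Promoter windows of some members of the day 6 lists are shown first, with the motif letters searched in them. Each comes from RefSeq promoters (GRCm38.p6) and is printed 5′ to 3′ on the gene's strand, with matches on either strand in capitals. For genes of the integrated stress response, which cells use when amino acids run short or proteins misfold, the capitals mark the amino acid response element searched as TGATGNAA, read by ATF4 and its partners. They are shown for the pair of genes of that list with the highest day 6 ratios among those with a match.
Trib3, chr2:152344036-152344155, minus strand: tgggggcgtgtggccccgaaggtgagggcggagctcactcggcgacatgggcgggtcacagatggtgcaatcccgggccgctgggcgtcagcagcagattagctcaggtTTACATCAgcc
Slc7a11, chr3:50443607-50443726, minus strand: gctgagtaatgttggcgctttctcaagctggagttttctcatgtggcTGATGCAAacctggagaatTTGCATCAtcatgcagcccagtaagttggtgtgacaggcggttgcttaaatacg
For interferon-stimulated genes the capitals mark the interferon-stimulated response element searched as GAAA, any 2 bases and GAAA, a site read in interferon signalling. The windows belong to the lowest-ratio members with a match.
Ifit1, chr19:34640739-34640858, plus strand: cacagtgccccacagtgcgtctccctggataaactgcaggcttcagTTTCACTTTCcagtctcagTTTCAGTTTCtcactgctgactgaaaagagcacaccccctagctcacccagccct
Ifit3, chr19:34583335-34583454, plus strand: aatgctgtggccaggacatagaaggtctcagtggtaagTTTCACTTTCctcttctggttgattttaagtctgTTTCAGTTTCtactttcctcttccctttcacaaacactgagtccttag
For mitotic genes the capitals mark the NF-Y box (CCAAT) and the CHR element (TTTGAA), the site through which the DREAM complex holds mitotic genes down in resting cells. Mki67 had the lowest ratio of its list, and Ccnb2 was picked afterwards as a textbook case.
Mki67, chr7:135716460-135716579, minus strand: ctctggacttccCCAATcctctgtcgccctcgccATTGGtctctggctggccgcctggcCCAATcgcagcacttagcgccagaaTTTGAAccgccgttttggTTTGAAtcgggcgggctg
Ccnb2, chr9:70421535-70421654, minus strand: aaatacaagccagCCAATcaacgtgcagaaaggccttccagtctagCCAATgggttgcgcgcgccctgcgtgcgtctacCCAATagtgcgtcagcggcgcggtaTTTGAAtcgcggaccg
For cholesterol synthesis the capitals mark the sterol regulatory element searched as TCACNCCAC, read by SREBP2.
Hmgcs1, chr13:119690180-119690299, plus strand: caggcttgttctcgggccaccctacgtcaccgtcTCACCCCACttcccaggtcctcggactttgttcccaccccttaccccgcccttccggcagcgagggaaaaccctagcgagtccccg

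These motifs were searched on both strands of the 250 bases before and 50 bases after the start. Matches of different motifs shared bases in at most 11 of 8552 windows for any pair of motifs (CCAAT with the CHR letters). The amino acid response element lay in 8 of 16 windows of the stress list (50.0%), against 2.02% of windows of all genes with CPM of 1 or more and 3.97% of all 32851 windows. For the interferon element it was 9 of 22 windows of the interferon-stimulated list (40.9%), against 2.86% and 3.44%. The CHR letters were in 15 of 21 mitotic windows (71.4%), against 11.3% and 17.9%, and CCAAT in 17 of 21 (81.0%), against 39.5% and 37.4%. CCAAT was also in 14 of 16 cholesterol windows (87.5%), while the sterol element itself was in 1 of 16, that of Hmgcs1, against 1.01% and 1.24%. In the replication list the E2F letters TTTCCCGC were in 3 of 23 windows, against 2.20% and 1.07%. The RUNX letters TGTGGTT were in 2 of 10 bone matrix windows (Spp1 and Dmp1), against 3.53% and 5.27%. A match is a description of letters, not a bound site. The lists were made of known genes of each pathway, so these shares describe the lists and not the day 6 response.

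Late bone matrix genes were higher with GSK126 on day 6, while type I collagen was nearly level. Of 13 bone matrix genes 12 reached CPM 1, of which 5 were at least 2-fold higher, 9 at least 1.5-fold higher and 0 lower by 1.5-fold; the median ratio was 0.75, against -0.01 for all genes. Bglap encodes osteocalcin, the hormone-like matrix protein of mature osteoblasts (chr3:88383495-88384464). It was at 3.59 CPM in vehicle and 76.5 in GSK126 on day 6, a log2 ratio of 4.41 with a counting interval of 4.20 to 4.64. Its levels were 0.695 and 2.83 CPM in the day 3 pair and 22.0 and 197 in the day 10 pair. The GSK126 library of day 6 thus exceeded every vehicle library, that of day 10 included. Its neighbour Bglap2 went from 2.30 to 30.7 CPM (3.73), and the near-identical copies of osteocalcin can share reads, so that the split between them is uncertain. Ifitm5, a membrane protein of mineralizing osteoblasts, stood at 4.17 and 51.2 CPM (3.61, interval 3.41 to 3.82).

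Ibsp, bone sialoprotein, gave one of the largest gains in CPM of any gene, from 409 to 1968 (2.27). Its levels were 177 and 532 CPM on day 3 and 547 and 3472 on day 10, so GSK126 was the higher of each pair. Spp1, osteopontin, was at 317 and 941 CPM on day 6 (1.57), but differed little in the other pairs (279 and 277 on day 3, 1228 and 1326 on day 10). Sparc, osteonectin, which binds collagen and calcium, had the largest CPM gain of all genes, 6722 to 11531 (0.78). The chains of type I collagen, the bulk of bone matrix, were at 33964 and 36138 CPM for Col1a1 (0.09) and 35181 and 37234 for Col1a2 (0.08). With the vehicle libraries of days 3 and 10 in place of that of day 6, these ratios were 0.44 and 0.32, and the median of the list was 1.19. Ogn, a small leucine-rich proteoglycan, was the 1 measured member below 0 (689 and 483 CPM, -0.51). Dmp1 and Mepe, genes of late osteoblasts and osteocytes, were at 11.4 and 18.7 CPM and at 0.702 and 1.15 CPM (0.72 and 0.69), and both were lower with GSK126 in the day 10 pair (-0.15 and -0.78). Mepe passed the CPM minimum through the GSK126 library of day 6 alone.

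Genes that handle phosphate or pyrophosphate followed, with 4 of 8 at least 2-fold higher, 0 lower by 1.5-fold, and a median of 0.90. The list mixes genes for and against mineral, and the 4 were Smpd3, Phospho1, Enpp1 and Alpl. Smpd3, a sphingomyelinase needed for mineralization in mice, was at 55.3 CPM in vehicle and 410 in GSK126 (2.89). Phospho1, the phosphatase that frees phosphate inside matrix vesicles, was at 11.3 and 76.1 CPM (2.75). Alpl, tissue-nonspecific alkaline phosphatase, was at 15.0 and 30.1 CPM (1.00, interval 0.88 to 1.13), and at 17.3 and 62.0 CPM on day 10. By contrast Ank, a carrier that exports the mineral inhibitor pyrophosphate, or its precursor ATP, was at 93.2 and 73.2 CPM (-0.35). Enpp1, which makes pyrophosphate, was higher at a low level (0.410 and 2.40 CPM, 2.49). It passed the CPM minimum through the GSK126 library alone.

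Among 13 osteoblast transcription factors 4 were at least 2-fold higher and 0 were lower by 1.5-fold (median 0.47). Mef2c, a factor of bone and muscle, was at 61.9 and 204 CPM (1.72). Tcf7, a transcription factor of Wnt signalling, was at 61.9 and 191 CPM (1.62). Sp7, the osteoblast factor osterix, was at 109 and 241 CPM (1.14). Runx2, which acts above Sp7, differed much less, at 288 and 335 CPM (0.22), and Dlx5 stood between them (0.90). Lef1, Twist1 and Msx2 lay between -0.15 and -0.06, each with a counting interval that spans 0.

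**Figure D2:**
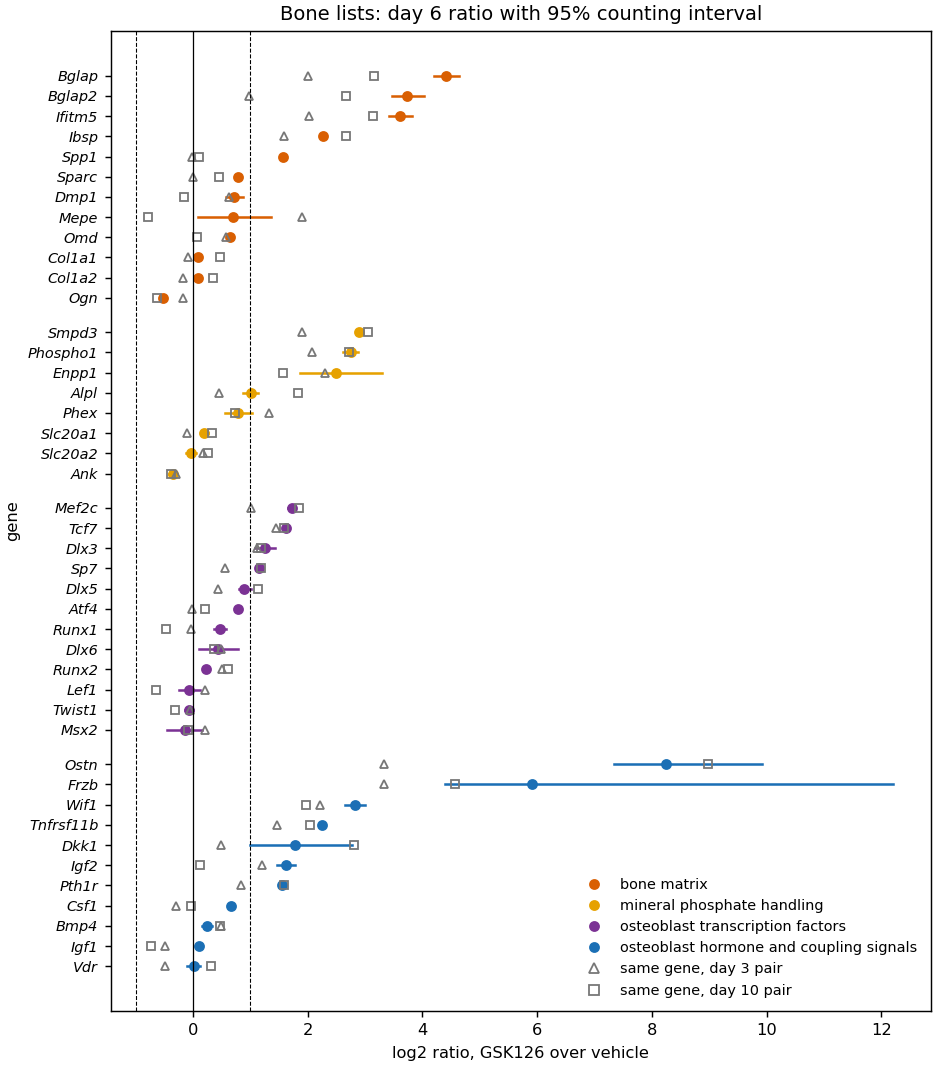
Filled points give the day 6 log2 ratio of GSK126 over vehicle for the bone genes reported here with CPM of 1 or more, lines its 95% counting interval, and open triangles and squares the ratio in the day 3 and day 10 pairs; dashed lines mark 2-fold. Of the bone matrix members Bglap, Bglap2, Ifitm5 and Ibsp lie above 2 on day 6, whereas Col1a1 and Col1a2 lie near 0, and Frzb has the widest interval (4.39 to 12.21) because vehicle held 2 counts.

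Secreted signals and hormone receptors had the highest median of the bone groups (1.62), with 11 of 15 at CPM 1, 7 of these at least 2-fold higher and 0 below 0. Ostn, Frzb and Dkk1 were under CPM 1 in vehicle and passed the minimum through the GSK126 library alone, so the rule sets these counts in part. Ostn encodes osteocrin (musclin), a peptide of osteoblasts and muscle that slows clearance of natriuretic peptides, and it had the highest ratio of all genes at CPM 1 (8.25, interval 7.35 to 9.92; chr16:27307641-27351209). It had 12 counts in the day 6 vehicle library and 4126 in GSK126. In the other libraries it had 0 and 20 counts on day 3 and 0 and 912 on day 10, so the day 6 GSK126 library was the highest. Tnfrsf11b, osteoprotegerin, the decoy receptor that blocks osteoclast formation, was at 104 and 491 CPM (2.25). Its ligand RANKL (Tnfsf11) was at 0 counts in all 6 libraries, which allows up to 3 fragments (6 counts) in each. Pth1r, the parathyroid hormone receptor, was at 157 and 462 CPM (1.56).

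The Wnt antagonists were the second set of high ratios in that list. Wif1, which binds Wnt ligands, was at 6.08 and 43.2 CPM (2.82). Frzb, a secreted Frizzled-related protein, had 2 and 230 counts (5.91, interval 4.39 to 12.21), and Dkk1 had 30 and 104 (1.77). Igf2, a growth factor, was at 8.56 and 26.4 CPM (1.62). Little difference was seen in Vdr, the vitamin D receptor (0.01), and in Igf1 (0.11).

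Cartilage matrix genes were higher too, although the SOX factors of chondrocytes differed by less than 1.5-fold. Of 16 genes 11 reached CPM 1, of which 6 were at least 2-fold higher and 0 lower by 1.5-fold (median 1.18, or 0.67 against the vehicle libraries of days 3 and 10). Col9a1, a chain of cartilage type IX collagen, had 10 counts in vehicle and 760 in GSK126 (6.04, interval 5.06 to 7.93). It passed the CPM minimum through the GSK126 library alone. Col2a1, the main cartilage collagen, was at 56.4 and 245 CPM (2.12), and at 207 and 559 CPM on day 3, so its level was highest early. Col11a2 was at 24.0 and 142 CPM (2.56) and reached 364 CPM in the GSK126 library of day 10. Sox9, which drives chondrocyte genes, was at 36.4 and 30.1 CPM (-0.27), Sox5 had a ratio of -0.31 and Sox6 of 0.11, and Acan, the cartilage proteoglycan, was at 0 counts in both libraries.

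The 12 genes with the highest day 6 ratios, among those with CPM of 5 or more, all had ratios above 0 in the other pairs as well. After Ostn they were Gpr141, Col9a1, Iqgap2, Slc36a2, Avil, Bglap, Atp2a3, Cd200, Fam167a, Myzap and Rasgrp2, down to 3.86. Gpr141, an orphan receptor, had 4 counts in vehicle and 644 in GSK126 (6.80, interval 5.51 to 10.43). Avil, which encodes the actin-binding protein advillin, was at 5.56 and 121 CPM (4.44), above its 41.0 CPM in the GSK126 library of day 10. Likewise Atp2a3, a calcium pump of the endoplasmic reticulum, was at 2.65 and 48.9 CPM (4.19) but at 7.79 CPM in GSK126 on day 10. Cd200, a surface glycoprotein that restrains myeloid cells, was at 2.69 and 49.4 CPM (4.19). By absolute gain in CPM the 8 leading genes were Sparc, Col1a1, Col1a2, Ibsp, Eef1a1, Eef2, Tnc and Gpc1. The last of these were Tnc, tenascin C (648 and 1680 CPM, 1.37), and Gpc1, a cell surface heparan sulfate proteoglycan (566 and 1583 CPM, 1.48).

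The integrated and endoplasmic reticulum stress response had 9 of 18 members at least 2-fold higher, 13 at least 1.5-fold higher and 0 lower by 1.5-fold (median 0.95, or 1.85 against the vehicle libraries of days 3 and 10). Its median in the day 3 and day 10 pairs was 0.18 and 0.26. Trib3, a pseudokinase induced by ATF4, was at 14.8 CPM (vehicle) and 117 (GSK126) in the day 6 pair (2.98), at 2.73 and 6.02 in the day 3 pair, and at 1.30 and 4.67 in the day 10 pair. Slc7a11, the cystine importer whose window holds the element on both strands, was at 5.48 and 27.6 CPM (2.33). Chac1, which degrades glutathione, was at 10.7 and 50.3 CPM (2.23). For both genes day 6 was also the day of highest vehicle level.

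Ddit3, the stress factor CHOP, was at 25.0 and 75.7 CPM (1.60), with no gap on day 3 (14.5 and 14.4) and a reverse one on day 10 (13.5 and 11.5). Asns, asparagine synthetase, was at 127 and 381 CPM (1.58), and Atf4, the factor that reads the element, at 229 and 394 (0.78). Hspa5, the endoplasmic reticulum chaperone BiP, differed less (689 and 933 CPM, 0.44), and Ddit4 was lower (-0.32). Of the 8 members whose window held the element, 7 were at least 2-fold higher, beside 9 of all 18 members. Over all genes at CPM 1, 173 of 8552 windows held the element, and 20 of those 173 genes were at least 2-fold higher. Without regard to the element, 357 of the 8552 were. A role of the element was not tested. Immediate early genes respond within minutes to handling and serum. Of 13 members 1 was 2-fold higher (Atf3, which is also on the stress list), 5 were at least 1.5-fold higher and 0 lower by 1.5-fold. Among all genes 7.69% were at least 1.5-fold higher. The median of the list was 0.20, which turned to -0.38 against the vehicle libraries of days 3 and 10. Fos was at 4.43 and 8.44 CPM on day 6, against 109 and 104 on day 3.

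**Figure D3:**
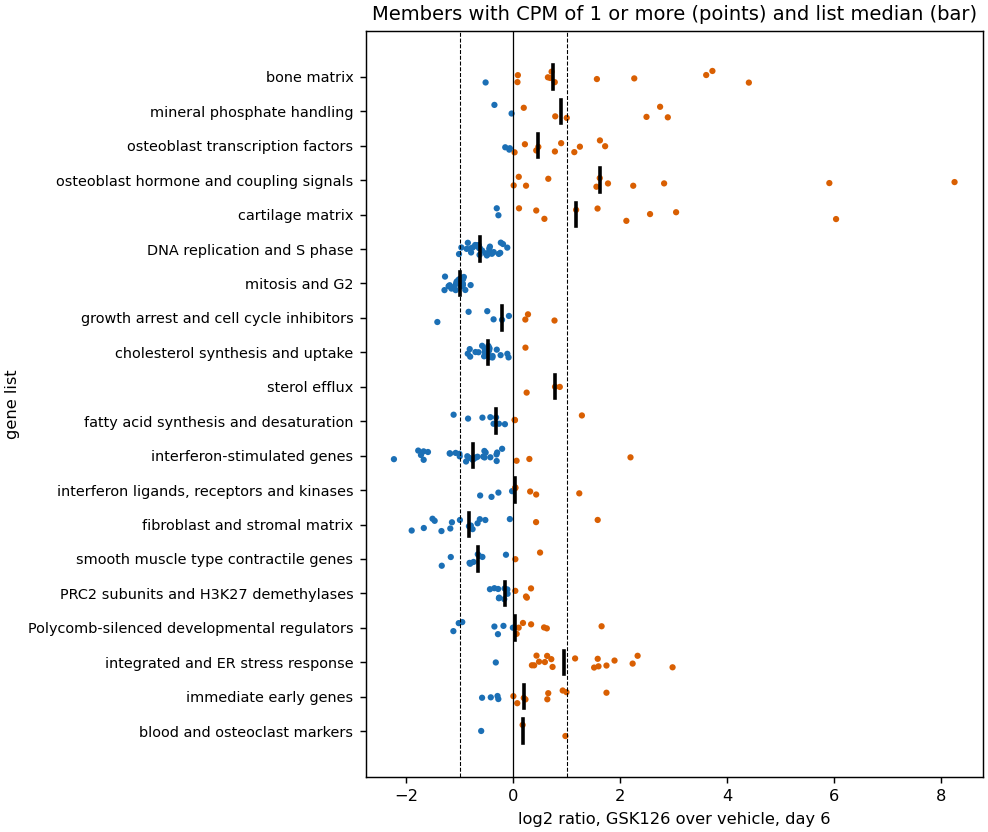
Each point is the day 6 log2 ratio of 1 list member with CPM of 1 or more (orange above 0, blue below), black bars are list medians, and dashed lines mark 2-fold; vertical scatter within a list carries no meaning. All 25 mitosis and 29 replication members lie below 0, and 17 of 18 stress members lie above 0.

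Proliferation genes were lower with GSK126 on day 6 without exception in the lists used. All 25 mitosis and G2 genes were lower by at least 1.5-fold, 12 by at least 2-fold, with a narrow range from -1.28 to -0.79 and a median of -0.99. Of the 15 whose window held the CHR letters, 8 were lower by at least 2-fold. The 29 replication and S phase genes were all lower, 15 by at least 1.5-fold and 1 by 2-fold, with a median of -0.62 (-1.32 against the vehicle libraries of days 3 and 10). Mki67, the Ki-67 proliferation marker, was at 294 CPM in vehicle and 121 in GSK126 (-1.28, interval -1.33 to -1.24). Ccnb2, cyclin B2, was at 25.6 and 12.2 CPM (-1.07), and Cdk1, its kinase, at 79.6 and 45.9 (-0.79). Top2a, the topoisomerase that untangles mitotic chromosomes, was at 266 and 137 CPM (-0.96).

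Replication genes spread more widely than mitotic ones. Uhrf1, which carries DNA methylation through replication, was at 112 and 55.6 CPM (-1.01), and Tk1, thymidine kinase, at 39.5 and 20.2 (-0.97). In contrast Pcna, the sliding clamp of DNA polymerase, was at 165 and 153 CPM (-0.11). The helicase subunits lay between Mcm7 (-0.19) and Mcm6 (-0.76). Summed over the mitosis list, CPM of vehicle and GSK126 were 3069 and 3140 (day 3), 1803 and 863 (day 6), and 1132 and 2036 (day 10). The GSK126 library of day 6 was thus the lowest of the 6, and the day 10 pair was ordered the other way, with 25 of 25 mitosis and 29 of 29 replication ratios above 0. Those sums for replication were 2448 and 2443, 1471 and 1009, and 2330 and 3791.

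Inhibitors of the cell cycle were mixed (1 of 9 at CPM 1 was 1.5-fold higher, 2 were 1.5-fold lower, median -0.21). Among all genes 7.69% were 1.5-fold higher and 7.26% lower. Cdkn1a, the inhibitor p21, was at 308 and 527 CPM (0.77). Gas1, a surface protein of resting fibroblasts, was at 96.7 and 36.2 CPM (-1.42). Cdkn2a and Cdkn2b, textbook Polycomb targets, were at 0 counts in both libraries. Ezh2 itself was at 46.7 and 38.8 CPM (-0.27), and 0 of 13 genes of PRC2 and of the H3K27 demethylases passed 1.5-fold.

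**Figure D4:**
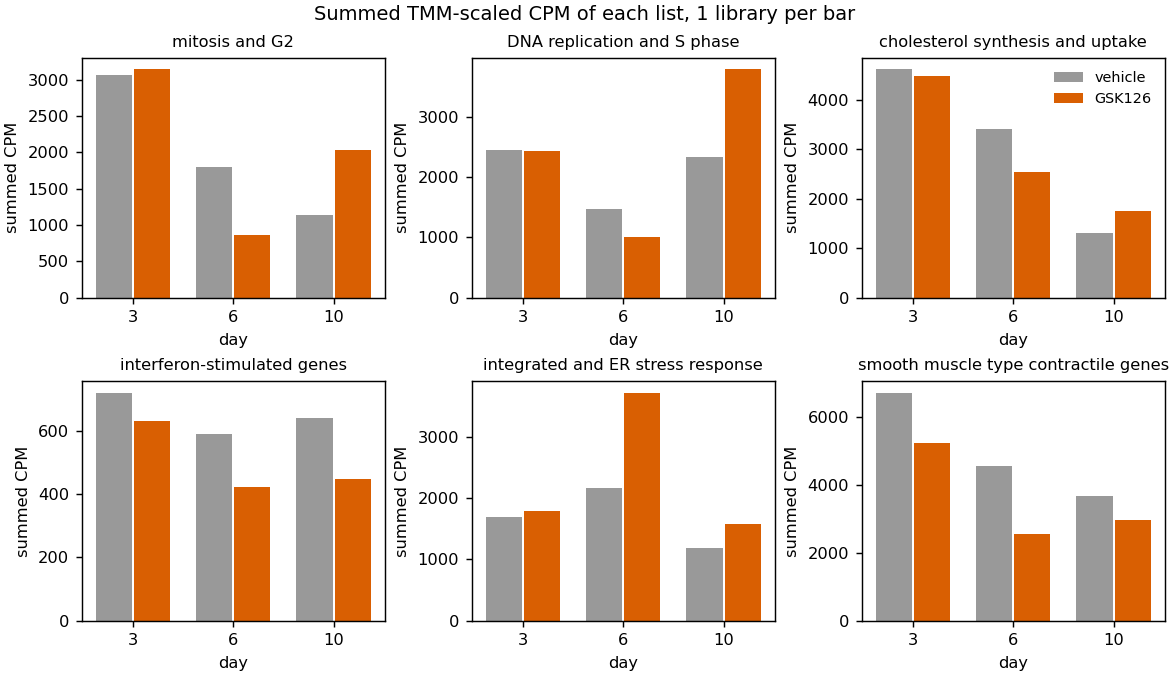
Bars give the summed TMM-scaled CPM of all members of 6 lists in each RNA library (grey vehicle, orange GSK126), with the day on the horizontal axis and 1 library per bar, so no error bar exists. Mitosis sums of vehicle and GSK126 are 1803 and 863 on day 6 and in the opposite order on day 10 (1132 and 2036), and the stress sum is highest in GSK126 on day 6 (3718).

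Cholesterol genes were lower by a modest, shared amount. Of 23 genes at CPM 1, 22 were below 0 and 5 were lower by 1.5-fold (Lss, Nsdhl, Hsd17b7, Stard4 and Mvk), 0 passed 2-fold, and the median was -0.46. Lss, the cyclase that forms lanosterol, was at 83.5 and 46.4 CPM (-0.85). Hmgcs1, which makes HMG-CoA, was at 457 and 314 CPM (-0.54). Dhcr7, of the last steps, was higher at 58.3 and 68.5 CPM (0.23).

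The vehicle level of this pathway also differed between days. Summed CPM were 4607 and 4482 (day 3), 3403 and 2542 (day 6), and 1298 and 1744 (day 10), so the day 6 GSK126 sum lies between the vehicle sums of days 6 and 10. Against the mean of the vehicle libraries of days 3 and 10, the median was -0.067. On the efflux side Abca1, the cholesterol exporter, was at 8.50 and 14.7 CPM (0.78). Fatty acid genes were mixed, with 1 of 11 at least 2-fold higher and 1 lower, against 4.13% and 2.15% of all genes. Their median was -0.32, or -0.11 against those vehicle libraries. Elovl6, a chain elongase, was at 96.9 and 44.8 CPM (-1.11), and Me1, which makes NADPH, at 104 and 254 (1.29).

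Interferon-stimulated genes were lower as well, with 27 of the 30 at CPM 1 below 0, 18 lower by 1.5-fold and 10 by 2-fold, against 1 at least 2-fold higher (median -0.75). Ifi27l2a, a classical interferon-induced gene, was at 15.3 and 3.26 CPM (-2.23, interval -2.49 to -1.99). Ifit1, which binds foreign RNA, and its partner Ifit3 were at 2.59 and 0.745 CPM (-1.77) and at 2.42 and 0.745 (-1.67). Both passed the CPM minimum through the vehicle library alone, so the rule sets the counts of lower genes in part. Ddx58, the RNA sensor RIG-I, was at 52.3 and 28.4 CPM (-0.88). Xaf1, an apoptosis factor, went the other way at 12.5 and 57.2 CPM (2.19).

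The interferon list summed to 720 and 632 CPM (day 3), 589 and 421 (day 6), and 640 and 446 (day 10), so that GSK126 was the lower of each pair. Its median was -0.04 on day 3 and -0.81 on day 10. Ifit1 was at 2.03 and 4.11 CPM on day 3, in the order opposite to day 6. Interferon genes Ifnb1 and Ifna4 were at 0 counts in both day 6 libraries. Of 9 ligand, receptor and kinase genes at CPM 1, Jak2 was 2-fold higher (70.5 and 166 CPM, 1.24) and Irf1 was 1.5-fold lower (36.9 and 24.0 CPM, -0.62).

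Fibroblast and stromal matrix genes held the largest losses of CPM. Of 17 genes at CPM 1, 13 were lower by 1.5-fold and 7 by 2-fold, and 1 was 2-fold higher (median -0.83). Col3a1, the fibrillar collagen of soft tissue, had the largest drop in CPM of any named gene, from 11402 in vehicle to 6747 in GSK126 (-0.76, or -0.31 against the vehicle libraries of days 3 and 10). Postn, periostin, a matrix protein of periosteum and ligament, was at 3220 and 1134 CPM (-1.51), and in the day 3 and day 10 pairs at 3807 and 2805 and at 2037 and 788. Fbn1, the microfibril protein fibrillin 1, was at 635 and 251 CPM (-1.34), and Has2, which makes hyaluronan, at 28.7 and 9.02 (-1.67). Cxcl12, a chemokine of marrow stroma, was higher at 29.0 and 86.8 CPM (1.58), as was Fbln2, fibulin 2, at 198 and 267 (0.43).

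Type VI collagen chains were lower together, with Col6a3 at 5289 and 2794 CPM (-0.92), Col6a2 at 2259 and 1470 (-0.62) and Col6a1 at 2631 and 1823 (-0.53). Against the vehicle libraries of days 3 and 10 these were -0.55, -0.23 and -0.29. Col12a1 was at 3176 and 2030 CPM (-0.65) and Vim, the intermediate filament vimentin, at 4480 and 3668 (-0.29, or -0.14 against those libraries). Contractile genes were 1.5-fold lower in 7 of 11 cases and 2-fold lower in 2 (median -0.66). Acta2, smooth muscle actin, was at 1573 and 624 CPM (-1.33), and Lmod1, which nucleates actin filaments, at 50.9 and 22.7 (-1.16). The stromal sum was 19082 and 10563 CPM on day 6, while bone matrix summed to 77471 and 88734.

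Of the 12 lowest ratios among genes at CPM 5, 9 were below 0 in both other pairs as well. Cdh26, a cadherin, was at 19.0 and 3.87 CPM on day 6 (-2.29) and 26.4 and 5.39 on day 10. Drp2, a relative of dystrophin, was at 31.4 and 7.01 CPM (-2.16) and 33.3 and 7.24 on day 10. Fam131b (-2.44), 5430419D17Rik (-2.57) and Plekha4 (-1.98) were also below -1 on day 10. Aldh1a3, which makes retinoic acid, was at 11.7 and 2.90 CPM (-2.01). Against the vehicle libraries of days 3 and 10, 5430419D17Rik was at -1.47 and Aldh1a3 at -1.19.

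For 5 of these 12 genes the day 6 vehicle level was at least 2-fold above both other vehicle libraries. Sap30l, a relative of a histone deacetylase complex subunit, was at 599 CPM in the day 6 vehicle library, 26.4 in GSK126 (-4.50), and between 21.6 and 29.0 in 3 of the others, with 282 CPM in the GSK126 library of day 10. Pcdhac2, a protocadherin, was at 169 CPM against 13.8 to 25.7 in the other 5 libraries (-3.61). Inpp5e was at 125 CPM against 20.1 to 29.8 (-2.62), and Rnf220 at 198 against 34.5 to 41.8 (-2.34). Corin, a protease that activates natriuretic peptide, had 572 counts there and 2 to 6 in every other library (-7.15, interval -13.42 to -5.62). With the vehicle libraries of days 3 and 10 in place of that of day 6, Rnf220 stood at 0.0095, Sap30l at -0.071, Inpp5e at -0.52, Pcdhac2 at -0.55 and Corin at -0.74. These ratios therefore rest on 1 library, and the source of its high values was not tested.

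H3K27me3 islands (regions enriched over input) called 24 hours after the first dose were set beside the day 6 ratios. They were called per treatment from 1 immunoprecipitation and 1 input, with 34498 islands in vehicle (median length 3400 bases) and 24947 in GSK126 (5600 bases). Their lists differ in the fewest reads per island (17 and 27), so their counts are not comparable as amounts of the mark. Chromosome 6 held 4155 vehicle and 3505 GSK126 islands, and chromosome X 107 and 27. The shares below are not adjusted for chromosome. A vehicle island lay within 2 kb of the gene for 174 of the 491 genes 2-fold higher (35.4%, exact binomial interval 31.2 to 39.8), 39 of the 256 lower (15.2%, 11.1 to 20.2) and 1033 of all 11893 (8.69%). Among the 11465 genes below CPM 1 the share was 32.8%.

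Since silent genes hold more islands, the shares were also taken within bands of vehicle level. Below CPM 1 in vehicle, 116 of 197 higher genes had an island (58.9%, 51.7 to 65.8), against 28 of 97 that differed by less than 2-fold (28.9%, 20.1 to 39.0). These genes entered through the GSK126 library, and the higher ones were also longer (median span 28559 against 12884 bases), which gives more room for an island. From CPM 1 to 10 the shares were 27.2% for higher genes, 26.6% for lower genes and 14.4% for the rest. Here too the higher genes were longer, with median spans of 31006 (higher), 15661.5 (lower) and 14433 bases (the rest). At CPM 50 or more they were 8.89%, 7.46% and 4.03%, with intervals that overlap. Within 2 kb of the RefSeq start, an alternative chosen after the data were seen, 20.7% of the higher and 5.65% of all genes had an island.

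**Figure D5:**
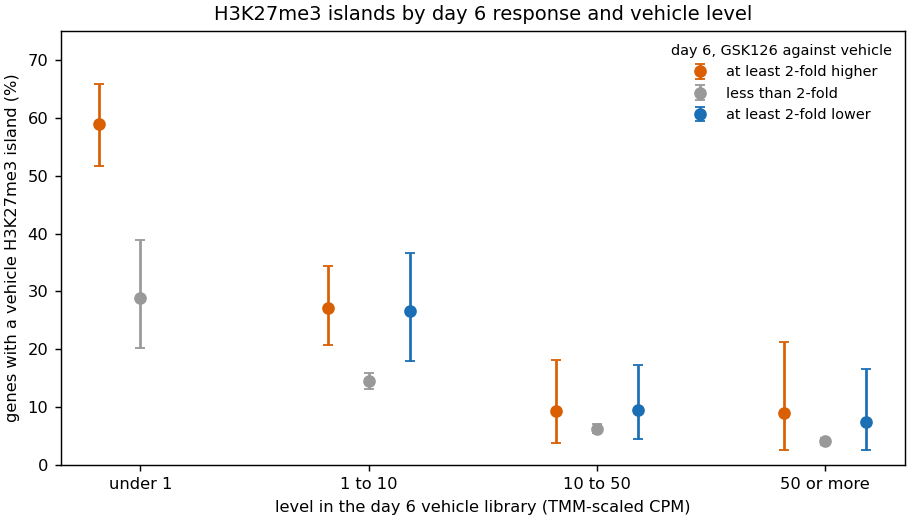
Points give the percent of genes with a vehicle H3K27me3 island within 2 kb, by level in the day 6 vehicle library (TMM-scaled CPM), for genes at least 2-fold higher (orange), less than 2-fold (grey) and at least 2-fold lower (blue) on day 6; bars are exact 95% binomial intervals over genes. Genes below CPM 1 in vehicle (58.9% and 28.9%) passed the minimum through the GSK126 library alone. Below CPM 10 the higher genes also have the longest median span, and from CPM 10 the intervals overlap.

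Of the 12 genes with the highest ratios, 8 had a vehicle island and 5 a GSK126 island. The shares were 35.4% and 29.1% of the 491 higher genes, and 8.69% and 7.35% of all genes at CPM 1. Ostn, Gpr141 and Col9a1 were among those under CPM 1 in vehicle, where 58.9% of higher genes had a vehicle island. For Ostn the strongest of its 2 vehicle islands was chr16:27347601-27350200 (29 ChIP and 17 input reads, the authors' fold 2.87), inside the gene span, and no GSK126 island was listed. Gpr141 also had a vehicle island and no GSK126 island. Col9a1 had 4 islands in each list, the strongest in vehicle at chr1:24172001-24180800 with the authors' fold of 2.79. Of the Wnt antagonists, Wif1 had 9 vehicle and 7 GSK126 islands, Frzb had 4 and 3, and Dkk1 had none in either list.

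No vehicle island was listed within 2 kb of any of the 12 bone matrix genes, the 13 osteoblast transcription factors, the 25 mitosis, 29 replication, 23 cholesterol or 17 stromal genes at CPM 1. Counts of 0 among so few genes leave wide intervals (up to 26.5% for bone matrix). These zeros depend on the window: within 5 kb, 4 of 25 mitosis (16.0%, the share of all genes too), 2 of 23 cholesterol and 1 of 12 bone matrix genes had an island. Other lists did have vehicle islands within 2 kb, where the share of all genes was 8.69%. Secreted signals and hormone receptors had 3 of 11 (27.3%), and cartilage matrix also 3 of 11. For interferon-stimulated genes it was 4 of 30 (13.3%), and for the stress list 2 of 18 (11.1%). Of genes with a vehicle island, 45 of 174 higher genes lacked one in GSK126 (25.9%), against 408 of 1033 over all genes (39.5%). Of 30 developmental regulators that Polycomb is known to silence, 16 stayed below CPM 1 in both libraries, against 11465 of all 23358 rows. Ratios of these 16 are not given. The other 14 had 1 at least 2-fold higher (Tbx2, 9.56 and 30.1 CPM, 1.65) and 2 lower (among them Six2, -1.02). Among all genes at CPM 1, 4.13% were at least 2-fold higher and 2.15% lower, and counts this small cannot be set apart from those shares. A vehicle island lay within 2 kb of 3 of these 14 (21.4%, interval 4.66 to 50.8), against 8.69% of all genes.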

How the data were processed

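The series holds 6 RNA libraries of MC3T3 cultures, and 1 H3K27me3 ChIP and 1 input library per treatment. Libraries were grouped by title and treatment label. The miRNeasy kit and the TruSeq v2 mRNA protocol were used for RNA, per the labels; that protocol does not mark strand, so overlapping and antisense genes cannot be told apart. TopHat2 2.0.6, HTSeq 0.5.3p9, BWA 0.5.9, SICER 1.1, CASAVA 1.9 and the build mm10 appear in the submitters' processing notes. The sources used here do not give the annotation, the counting mode or the SICER settings.

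Gene counts, as deposited, are unnormalized whole numbers made by the authors. The deposited RPKM values, also the authors', were used only as levels per length. SICER lists of the authors hold read counts per island, a p-value and adjusted p-value that were not used, and a fold (ratio) of ChIP over input, which is the authors' own value per island. Island starts were moved to 1-based positions.

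TMM factors over the 6 RNA libraries came from edgeR 4.0.16 (R 4.3.3), with a prior count of 2. A call is at least 2-fold (or 1.5-fold) among genes with CPM of 1 or more in either day 6 library. Intervals are exact binomial (Clopper-Pearson, 95%) on fragments, taken as 2 counts each, and cover counting error only; they carry no adjustment over genes. Ratios and intervals were tested on simulated data with 200 changed genes. Depth is 52345033 (vehicle) and 50845301 (GSK126) fragments, so that 1 count is worth about 0.00975 and 0.0101 CPM.

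Named genes are, at CPM of 5 or more and with a name on 1 row only, the 12 highest and 12 lowest ratios, the 8 largest gains and 8 largest falls in CPM, and members of 24 gene lists (359 entries, 0 without a row, 4 found under an older symbol). The members and lists were chosen with earlier results of these data known. A few list members count in the totals and are not reported here by name. Comparisons between days share no library. Promoter windows of RefSeq (GRCm38.p6) were matched by symbol for 8552 of the 11893 genes, taking the start nearest the gene's end in the table. Alternatives changed the scaling, prior count, CPM minimum, fold, vehicle libraries and island window (Python 3.11.15, pandas 2.3.3, scipy 1.17.1, DESeq2 1.42.0 for its size factors).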

Additional observations from a re-analysis of the deposited data

Results flagged for a closer look

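The mitosis list had a median ratio (log2) of -0.99 in the day 6 pair and 0.85 in the day 10 pair, with all 25 members below 0 in the first pair and above 0 in the second. The replication list had -0.62 and 0.71, again with all 29 members on opposite sides. Sap30l stood at -4.50 on day 6 and 3.28 on day 10: the high libraries were vehicle on day 6 (599 CPM) and GSK126 on day 10 (282 CPM). Each pair is 1 library against 1, so these differences between days were not tested. The compound was taken away on day 6, so culture, day and its removal cannot be told apart.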

How the results depend on the processing

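With library size alone, DESeq2 size factors, Rn45s left out, or a prior count of 0.5, the counts of 491 and 256 genes stayed within 1.5 times and no list median changed direction, except that of the developmental regulators without Rn45s (0.03 to -0.00052); the median of all genes moved by less than 0.1. Without a CPM minimum 2095 genes were 2-fold higher and 1196 lower, at CPM of 5 or more 268 were higher, and at 1.5-fold the counts were 914 and 863. With no minimum, list medians were 0.59 for cartilage and -0.92 for stromal genes. With the vehicle libraries of days 3 and 10 in place of that of day 6 (chosen after seeing the data), 422 genes were lower. Medians were then 1.19 for bone matrix, 1.12 for mineral genes, 0.57 for osteoblast factors, 0.67 for cartilage, -1.32 for replication, -0.067 for cholesterol, -0.75 for contractile genes and 1.85 for stress. Medians near 0 changed sign: immediate early genes to -0.38, developmental regulators to -0.12 and interferon ligands and receptors to -0.037. Rnf220 changed sign, to 0.0095. The share with a vehicle island was 40.3% of higher genes at 5 kb and 20.7% within 2 kb of the start. For lower genes it was 6.21% near the start. Over all genes it was 5.11% for the span alone, 16.0% at 5 kb, 7.11% for islands of at least 2-fold and 5.65% near the start. The cause of these shifts was not tested, beyond the windows' own sizes. For the 40 genes named by rank, 208 values over all settings moved by less than the counting error, 31 by more, and 1 changed sign. Most of the shifts came from the other vehicle libraries: there 27 of the 40 genes moved by more, 1 changed sign and only 12 stayed within the counting error.

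No paired analysis was possible because each treatment has 1 library per day, and leaving out a replicate was not possible for the same reason. Genes with few fragments are limited by depth: 47 of the 491 higher genes had 20 or fewer vehicle counts.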

Other observations

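Protein synthesis genes, chosen after their values were seen, were slightly higher on day 6. All 77 ribosomal protein genes at CPM 1 had ratios above 0 (median 0.24, range 0.01 to 0.52), and 0 passed 1.5-fold. In the day 10 pair 5 of 77 were above 0 (median -0.14). The elongation factors Eef1a1 (7766 and 9187 CPM, 0.24) and Eef2 (4947 and 6089 CPM, 0.30) were among the largest gains in CPM. Of 18 aminoacyl-tRNA synthetases, which load amino acids onto transfer RNA, 16 were above 0 and 7 at least 1.5-fold higher (median 0.51, against 0.02 on day 3 and 0.12 on day 10).

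Potassium channel genes, also chosen after their values were seen, were mostly below CPM 1: 17 of 95 reached it, against 11893 of all 23358 genes. Of the 17, 7 were higher and 0 lower by 2-fold, against 4.13% and 2.15% of all genes at CPM 1. Their median was 0.86, against 0.15 on day 3 and 0.13 on day 10. How many of the 7 passed the minimum through the GSK126 library alone was not counted, so the rule may set this count in part. Since the family was picked for its values, these counts are no test of it. Of 31 collagen genes at CPM 1, 6 were higher and 0 lower by 2-fold, 6 were lower by 1.5-fold, and the median was 0.02. Tubb3, a tubulin named for neurons, was at 13.3 and 46.7 CPM (1.81), and it made up most of the summed CPM of 6 neuronal markers (19.5 and 51.4). Mtap2, the other member at CPM 1, was at 6.16 and 4.37 CPM (-0.49). The remaining 4 had few counts: Gap43 0 and 18, Snap25 4 and 10, Syt1 0 and 6, and Rbfox3 2 and 2.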
